A study of Mus musculus with 9 samples.

Results

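The comparison of EC359 with vehicle under a high-fat diet comprised 6 of the 9 RNA-seq libraries of the series, which were chosen by their labels: 3 libraries of the HFD + EC359 group and 3 of the HFD group. EC359 is an inhibitor of LIFR, the receptor of leukemia inhibitory factor (LIF). All tumors were grown from 4T1, a mouse mammary carcinoma line used as a model of triple-negative breast cancer, whose cells were injected orthotopically into a mammary fat pad in BALB/c hosts. The mice of the HFD group received vehicle, which the paper describes as hydroxy propyl cellulose in its account of the SCID mouse xenografts. They ate a diet with 60 kcal% fat for 6 weeks before receiving the cells and until the end of the experiment. The HFD + EC359 group ate the same diet and, once tumors had formed, received EC359 intraperitoneally at 5 mg/kg on 5 days per week. The 3 libraries of the LFD group, from vehicle-treated mice kept for the same time on a diet with 10 kcal% fat, were used only to give the diet difference of each gene. No group combined EC359 with the low-fat diet, so an effect of EC359 cannot be told apart from one that needs the high-fat diet. The tumors came from cells of one established line in a syngeneic host, and a bulk tumor library holds RNA of both. The design text counts 3 tumors per group and does not say which of the study's animals they came from.

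LIF signals through LIFR, which pairs with the shared receptor chain gp130 (Il6st) and activates the JAK kinases and the transcription factor STAT3. STAT3 raises its own inhibitors, above all SOCS3, and with them survival and growth genes such as Pim1, Bcl3, Junb, and Mcl1. In tumors, LIF and its relatives (oncostatin M, IL-6, and IL-11) are made by carcinoma cells as well as by fibroblasts and immune cells, and carcinoma and stromal cells carry their receptors.

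The 6 libraries held 7314525 to 9750959 counts, and the LFD libraries 5085268 to 6509005. A count of 0 allows up to 3 counts, which was 0.30 to 0.61 CPM depending on the library, for counting error only. CPM is the count scaled to a common library total after TMM normalization. The biological coefficient of variation was 2.54% in the HFD libraries and 2.76% in those with EC359. Since no label ties the libraries to separate animals, the p-values measure the spread between these libraries, which may in part be technical. Relative to the mean of all 9 libraries, the log2 level of the 3343 genes of lowest GC content exceeded that of the 3342 of highest GC content by 0.10 to 0.16 in the HFD group and by 0.25 to 0.30 in the HFD + EC359 group, while the difference was -0.54 to -0.32 in the LFD group. Results that this trend moved by over 1.5 times are given with it removed. The carcinoma markers Krt8 and Krt18 were abundant in all 6 libraries (405 to 415 and 287 to 301 CPM in the HFD group). Krt7 was nearly absent, at or below 1.02 CPM, and Epcam at 0.883 to 5.80 CPM. The B cell marker Cd79a and the fat cell genes Adipoq and Lep were below 1 CPM in every one of the 6 libraries.

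Of the 22609 listed genes, 13366 had enough counts to be tested. With EC359, 278 genes were higher (2.08% of the tested genes) and 184 were lower (1.38%) where a change of over 2-fold with an adjusted p below 0.01 was required. The adjusted p is that of edgeR's quasi-likelihood (QL) test after Benjamini-Hochberg correction for all tested genes. In 459 of these 462 genes the libraries of the groups did not overlap, and neither did they for 41.3% of all tested genes. An exact permutation test of 3 libraries against 3 cannot give a two-sided p below 0.1, and the p-values given are therefore those of the edgeR model. At any fold and an adjusted p under 0.05, 1696 genes were higher (12.7%) and 1849 were lower (13.8%). The median log2 fold change of all tested genes was 0.0057. The rises were larger than the falls, with a median size of 2.01 against 1.35 on the log2 scale among the genes past the threshold, and 94 of the 278 rises but 16 of the 184 falls had a library with at most 3 counts.

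**Figure D1:**
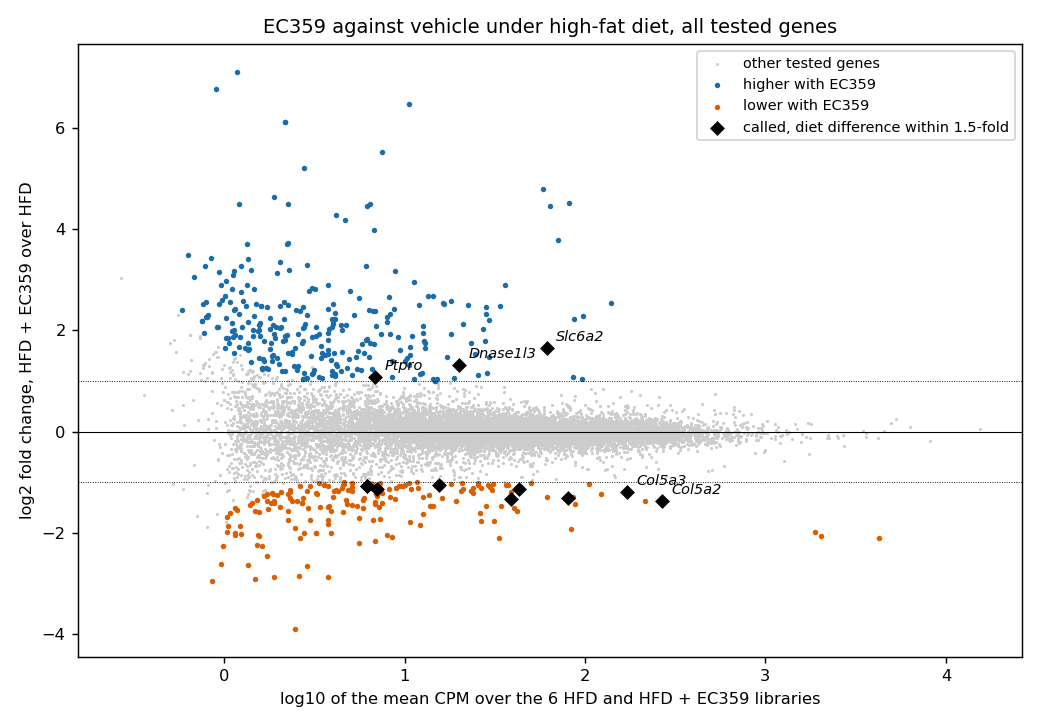
Log2 fold change of HFD + EC359 over HFD (vertical axis) against the log10 of the mean CPM over the 6 libraries (horizontal axis), with 1 point per tested gene and dotted lines at 2-fold. Blue and orange points are the 278 higher and 184 lower genes, and black diamonds are the 12 of them whose diet difference was within 1.5-fold. Slc6a2 is the highest and Col5a2 the most abundant of these.

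The largest rises among genes with a mean of at least 10 CPM in the higher group were in keratins and other genes of stratified epithelium. Krt17, a stress keratin of hair follicles and wounded epidermis, was at 3.15, 4.98, and 4.09 CPM in the HFD libraries and at 110.3, 114, and 116 CPM with EC359. The EC359 libraries lay far above the HFD libraries and below the LFD libraries (139, 138, and 134 CPM), and the log2 fold change over HFD was 4.80 ± 0.093 (edgeR adjusted p = 1.0e-28). Krt6b and Krt6a rose by 4.51 and 4.47 and Krt16 by 3.79 on the log2 scale, although the keratin pairs Krt6a and Krt6b and Krt16 and Krt17 are near copies that can share reads. Lamb3, a chain of the basement membrane protein laminin-332, was at 1.01, 1.31, and 1.09 CPM and rose to 13.1, 10.4, and 9.9 CPM. Klk7, a serine protease of the cornified layer, rose from 1.64, 1.7, and 1.91 to 15.4, 15, and 17.2 CPM. Rptn, a protein of the cornified envelope, had 2 or 3 counts in each HFD library and 14.2, 15.1, and 14.8 CPM with EC359, a ratio of 48.2 (23.2 to 121) between the summed counts (exact 95% interval, counting error only). The same ratio was 23.2 (13.1 to 45.3) for the protease Klk6, 22.6 (12.8 to 44.2) for the hair keratin Krt85, and 96 (40.9 to 297) for the gap junction gene Gjb2. Each of these genes was also lower with HFD than with LFD, and none is among those with a bounded diet difference below. In bulk samples, fewer cells of a type and less RNA per cell cannot be told apart.

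Of the 19 tested cornified envelope genes, 18 rose with EC359 and 0 fell (median log2 fold change 2.77). Of the 14 basal and stratified keratin genes 13 rose. Among all tested genes, 12.7% were higher and 13.8% lower. Their summed levels ran from 49.1 to 51.6 CPM in the HFD group and from 182 to 187 CPM in the HFD + EC359 group for the envelope genes, and from 223 to 229 CPM in the HFD group and from 1156 to 1184 CPM in the HFD + EC359 group for the keratins. The LFD libraries were at 211 to 229.7 CPM and 2155 to 2378 CPM. The markers of differentiated epidermis did not move alike. Lor rose from 3.15, 2.75, and 3.13 to 9.83, 8.01, and 9 CPM and Krt1 from 38, 40.1, and 45.1 to 55.1, 56.4, and 60.4 CPM. Krt10 was at 53.8, 59.2, and 50.7 CPM in the HFD group and at 52.2, 54.2, and 52 CPM with EC359, with overlapping groups (-0.05 ± 0.073, edgeR adjusted p = 0.68). The part of epidermal cells in these rises was not tested.

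Of the 10 largest falls among genes with a mean of at least 10 CPM in the higher group, 7 were in collagens and other genes of the interstitial matrix, and larger falls of sparse genes are given with their lists. Col3a1, a fibrillar collagen, was at 3072, 3075, and 2888 CPM in the HFD libraries and at 769.8, 773, and 745 CPM with EC359, so that it fell by 1.98 on the log2 scale (3.95-fold, edgeR adjusted p = 7.9e-30). Col1a2 fell from 3286, 3330.1, and 3172 to 799.9, 781, and 762 CPM and Col1a1 fell by 2.09 on the log2 scale. All EC359 libraries of both genes also lay below the LFD libraries. Col14a1, a collagen that lies along the fibrils, fell from 58.1, 52.5, and 52.3 to 12.5, 12.2, and 13.3 CPM, and the LFD libraries stood at 13.7, 11, and 12 CPM. Tnxb, the matrix glycoprotein tenascin-X, fell from 127, 137, and 135 to 32.3, 35.9, and 36.9 CPM, a log2 fold change of -1.92 ± 0.064. Mfap5 and Fbn2, which belong to microfibrils, fell by 2.05 and 1.85. Ptx3, a secreted pattern recognition protein, was at 11, 10.9, and 11.7 CPM and at 1.94, 2.48, and 3 CPM with EC359. The adhesion receptor Gpr133 fell by 2.09 and the imprinted noncoding RNA Rian by 1.79 on the log2 scale.

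**Figure D2:**
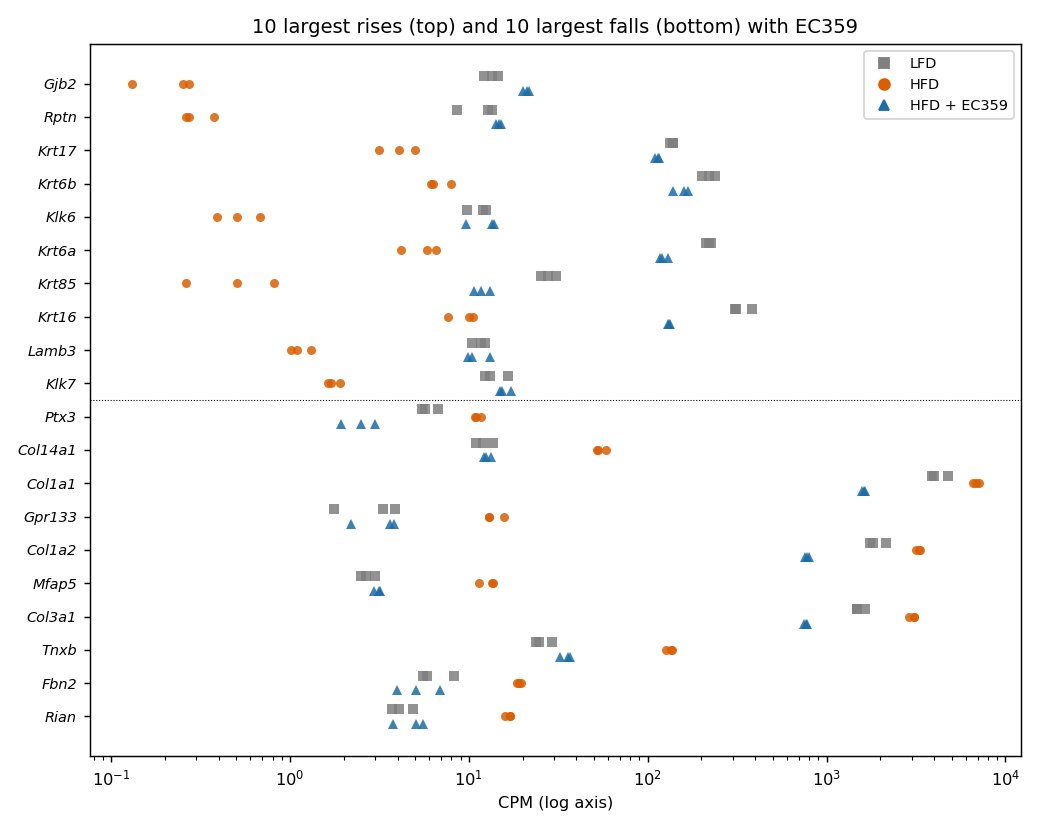
CPM on a log axis (horizontal) of the 10 largest rises (above the dotted line) and the 10 largest falls (below it) with EC359 among genes with a mean of at least 10 CPM in the higher group, with 1 point per library. Blue triangles are HFD + EC359, orange circles HFD, and gray squares LFD. The circles and triangles of each gene stand apart, and for Krt17 the HFD circles run from 3.15 to 4.98 CPM and the EC359 triangles from 110.3 to 116 CPM.

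Most of the genes past 2-fold with EC359 also differed by diet, and the diet comparison shares the HFD libraries with the EC359 comparison. With HFD against LFD, 26% of the tested genes were higher and 25.8% were lower at an adjusted p under 0.05. Of the 462 genes past the EC359 threshold, 408 were among them and 54 were not (23 higher and 31 lower with EC359). A missed threshold does not show that the diet had no effect. Genes were therefore called bounded where the 95% interval of their diet difference lay within 1.5-fold in either direction, as it did for 61.1% of the tested genes. Of the 462 genes, 12 were bounded, 3 higher and 9 lower with EC359, and 6 of these 12 still passed the diet test at a small fold. Regardless of fold, at an adjusted p under 0.05, 809 bounded genes were higher and 1191 were lower. The EC359 libraries lay outside all 6 vehicle libraries in 61 of the 278 rises and 67 of the 184 falls past 2-fold. The share of all tested genes with this separation was not counted.

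Slc6a2, the noradrenaline transporter of sympathetic neurons (chromosome 8, 95484946 to 95525566, plus strand, mm9), had the largest rise among the bounded genes. It was at 29.1, 28.7, and 31.8 CPM in the HFD libraries, 92.9, 93.4, and 95.2 CPM with EC359, and 23.7, 24, and 27.7 CPM with LFD. The 3 EC359 libraries lay within 3 CPM of one another and 3.15-fold above the HFD group (1.65 ± 0.069, edgeR adjusted p = 2.8e-19), while the vehicle groups of either diet were close (diet difference 0.25, 95% interval 0.06 to 0.43). Dnase1l3, a secreted nuclease made by myeloid cells, was at 10.7, 12.1, and 11.7 CPM in the HFD group, 32.3, 28.7, and 25.1 CPM with EC359, and 9.21, 12.6, and 7.58 CPM with LFD (1.31 ± 0.12, edgeR adjusted p = 2.7e-10). Every EC359 library lay above all 6 vehicle libraries. Ptpro, a receptor tyrosine phosphatase, rose from 4.16, 4.45, and 4.63 to 10.6, 9.48, and 8.1 CPM and stood at 4.09, 4.87, and 4.58 CPM with LFD.

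Of the 9 bounded genes that fell, 5 encode chains of collagen V or proteins that crosslink, bind, or take up matrix proteins. Col5a2, a chain of the collagen that starts fibril assembly, was at 402, 387, and 371 CPM in the HFD libraries, 154, 153, and 143 CPM with EC359, and 363, 311, and 321 CPM with LFD. The EC359 libraries lay below all 6 vehicle libraries (-1.37 ± 0.047, edgeR adjusted p = 1.1e-21). Col5a3 fell from 247, 249, and 220.2 to 108, 103, and 103 CPM and was at 231, 188, and 197 CPM with LFD. Loxl1, a lysyl oxidase that crosslinks elastin and collagen, fell from 57.9, 54.8, and 53.6 to 19.8, 27.5, and 19 CPM, with LFD libraries at 44.6, 41, and 42.5 CPM. Aebp1, a collagen-binding protein of connective tissue, fell from 114, 116, and 114 to 43.4, 52.7, and 43.5 CPM, and Mrc2, an endocytic collagen receptor, from 58.6, 62, and 57 to 26.3, 27.3, and 26.8 CPM. Both were lower with LFD than with HFD by a small amount (diet differences 0.43 and 0.42), and with EC359 lower still. Npr1, the receptor of atrial natriuretic peptide, was at 22.8, 19.3, and 20.6 CPM and fell to 11.4, 10.4, and 8.8 CPM. Dact3, an inhibitor of Wnt signaling, and the reading frames Mfrp and C1qtnf5, which share one locus and have identical counts, fell by 1.13 and 1.07 on the log2 scale.

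**Figure D3:**
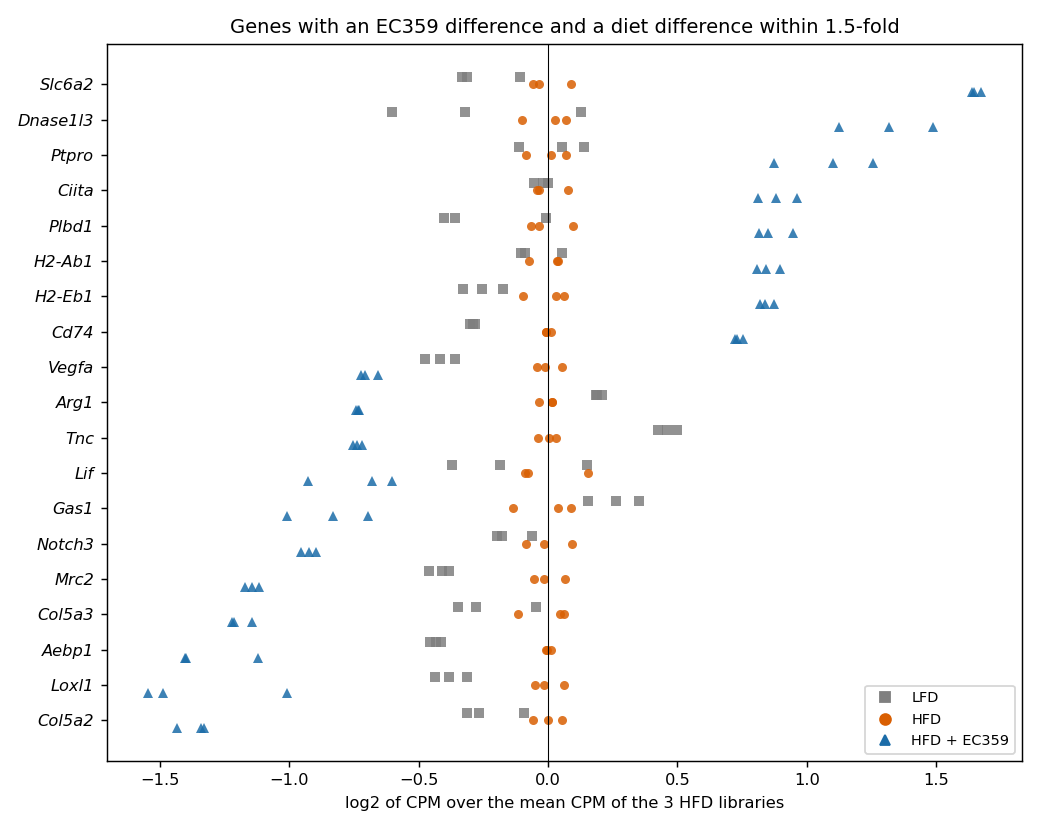
Log2 of the CPM of each library over the mean of the 3 HFD libraries (horizontal axis) for 19 genes that moved with EC359 and had a bounded diet difference, with 1 point per library. Blue triangles are HFD + EC359, orange circles HFD, and gray squares LFD. For every gene shown, the 3 EC359 libraries lie outside all 6 vehicle libraries, and most of these genes were chosen by a rule that required it.

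With a lower limit of 1.5-fold and an adjusted p under 0.05, 33 bounded genes were higher and 49 were lower with EC359. In 33 and 48 of them the EC359 libraries lay outside all 6 vehicle libraries, which the fold and the bound used to choose them make likely. In 24 and 32 the diet difference did not pass its own test. Among the 33 rises were Ciita, H2-Ab1, H2-Eb1, and Cd74 of MHC class II, along with Nfatc2, a transcription factor of lymphocytes, Ms4a7, a macrophage gene, Lilrb3, an inhibitory receptor of myeloid cells, and Plbd1, a phospholipase-like protein of myeloid cells. Their log2 fold changes were 0.59 for Nfatc2, 0.84 for Ms4a7, 0.60 for Lilrb3, and 0.87 for Plbd1. Cyp27a1, which makes 27-hydroxycholesterol, rose by 0.76 and Id2, an inhibitor of helix-loop-helix factors, by 0.62.

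MHC class II molecules present extracellular peptides to CD4 T cells. Their genes share an upstream module with an X box and a Y box and are switched on through the coactivator CIITA. Ciita was at 24.1, 24.2, and 26.2 CPM in the HFD libraries, 43.5, 48.4, and 45.7 CPM with EC359, and 23.9, 24.5, and 24.8 CPM with LFD. The EC359 libraries lay 1.85-fold above the HFD group (0.89 ± 0.083, edgeR adjusted p = 2.5e-10), and the diet difference was 0.021 (95% interval -0.18 to 0.22). H2-Ab1, the beta chain of I-A, was at 91.7, 84.8, and 91.3 CPM in the HFD group, 160.2, 166, and 156 CPM with EC359, and 83.1, 83.8, and 92.7 CPM with LFD (0.85 ± 0.049, edgeR adjusted p = 2.1e-15). H2-Eb1, the beta chain of I-E, rose from 78.4, 80.04, and 71.8 to 137, 141, and 135 CPM, and Cd74, the invariant chain that guards the peptide groove and a gene that overlaps another on its strand, from 399, 393, and 393 to 652, 666, and 655 CPM. H2-Aa, the alpha chain of I-A, rose from 58.5, 67.1, and 61.7 to 131, 130.1, and 126 CPM (1.05 ± 0.06, edgeR adjusted p = 1.6e-15) and was at 36.2, 45.4, and 47.2 CPM with LFD, so that its diet difference of 0.53 was not bounded. H2-DMa and H2-DMb1, which load the peptides, rose by 0.47 and 0.78. All 7 tested class II genes rose, and in all 7 the EC359 libraries lay above all 6 vehicle libraries, a share not counted over all tested genes.

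The promoter windows of H2-Aa and H2-Eb1 are shown because these genes rose together and because a Y box motif lies in both. Each window runs from 250 bases before the annotated gene start to 50 bases after it, 5′ to 3′ on the strand of the gene, from RefSeq on build GRCm38.p6, while the counts were made on mm9. The motif searched was TGATTGG on both strands, and its letters are in capitals. H2-Aa lies at chr17:34287774-34288073 on the minus strand and H2-Eb1 at chr17:34305617-34305916 on the plus strand.
H2-Aa: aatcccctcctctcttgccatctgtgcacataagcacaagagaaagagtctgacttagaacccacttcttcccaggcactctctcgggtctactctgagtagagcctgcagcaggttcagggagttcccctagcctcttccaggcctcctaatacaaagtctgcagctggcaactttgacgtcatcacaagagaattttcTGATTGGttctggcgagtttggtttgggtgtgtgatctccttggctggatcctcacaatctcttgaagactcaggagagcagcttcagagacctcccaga
H2-Eb1: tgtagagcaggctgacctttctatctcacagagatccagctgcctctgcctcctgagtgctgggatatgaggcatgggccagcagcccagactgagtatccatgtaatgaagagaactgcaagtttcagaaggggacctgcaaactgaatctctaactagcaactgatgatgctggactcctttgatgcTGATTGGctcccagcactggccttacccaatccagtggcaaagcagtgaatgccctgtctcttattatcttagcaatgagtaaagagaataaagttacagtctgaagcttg
The match begins 50 bases before the start in H2-Aa, 61 in H2-Eb1, and 63 in H2-DMb1. Of the 4 class II genes that have a window, 3 held a match, and of all 32851 windows 7.82% did. A match describes these letters and shows no binding.

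The wider list adds class I and its loading machinery. Of the 18 tested MHC and antigen presentation genes, 13 rose and 0 fell at any fold (median 0.27, against 12.7% of all tested genes higher). B2m, the light chain of class I, rose from 562, 572, and 581 to 763, 767, and 785 CPM (log2 fold change 0.43, or 0.27 after removing the GC and length trend). Nlrc5, the coactivator of class I, rose by 0.17. H2 genes differ between mouse strains, and the mm9 reference is of the C57BL/6J strain while all hosts were BALB/c, so levels of these genes are not compared with one another.

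Of 21 tested macrophage and monocyte genes, 12 rose and 3 fell (median 0.26), against 12.7% higher and 13.8% lower among all tested genes, and the summed level of the list ran from 3108 to 3117 CPM in the HFD group and from 3788 to 3819 CPM in the HFD + EC359 group. Csf1r, the receptor of the macrophage growth factor CSF1, rose from 290.2, 300.2, and 293 to 346, 355, and 359 CPM. The part of macrophage number in the class II rise was not tested. Lyve1 had the largest change of the list, a log2 fold change of -1.02. Arg1, the arginase of tumor macrophages, also went against most of the list. It fell from 129, 129, and 125 to 77, 76.3, and 76.8 CPM, stood at 145, 145, and 147 CPM with LFD, and its EC359 libraries lay below all 6 vehicle libraries (-0.73 ± 0.047, edgeR adjusted p = 2.1e-14). Of 10 tested dendritic and mast cell markers, 6 rose and 0 fell, and the summed level ran from 109 to 112 CPM in the HFD group and from 207 to 213 CPM in the HFD + EC359 group. Mcpt4, a mast cell chymase, was at 4.79, 4.98, and 4.5 CPM and rose to 29.8, 27.8, and 26.2 CPM (2.55 ± 0.13, edgeR adjusted p = 4.7e-17). The mast cell proteases Cpa3, Tpsb2, and Cma1 rose by 2.08, 2.02, and 1.88, and all 4 proteases lay above both vehicle groups. Itgax, the integrin of dendritic cells and macrophages, rose by 0.42, while Kit did not pass (0.26, edgeR adjusted p = 0.068).

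Among chemokines, 10 of 20 tested genes rose and 5 fell, against 12.7% and 13.8% of all tested genes. Cxcl9, an interferon gamma target that draws T cells, was at 5.3, 4.85, and 6.41 CPM and rose to 16.3, 14.2, and 14.9 CPM (1.45 ± 0.15, edgeR adjusted p = 4.3e-09), above LFD libraries at 0.614, 0.942, and 1.59 CPM. Ccl22, made by dendritic cells, rose by 1.22, and Ccl2, which draws monocytes and had a bounded diet difference, by 0.60. Cxcl14 and the eosinophil chemokine Ccl11 fell by 1.22 and 1.16. Interferon-stimulated genes split. Of 28 tested, 5 rose, which is near the share of all tested genes, and 10 fell (median -0.20). The 10 falls were all among 15 antiviral genes of the type I response, where Usp18 fell by 0.99, Mx2 by 0.81, and Irf7 by 0.46. Irf7, a transcription factor of that response, was at 32.3, 35.9, and 32.3 CPM and 23.2, 24.8, and 25.1 CPM with EC359, against 33.5, 32, and 32.8 CPM with LFD. The 5 rises were all among a subgroup of 7 genes made up of immune GTPases and Cd274. They were the GTPases Gbp2, Gbp5, Igtp, and Iigp1 and the checkpoint ligand Cd274. Irf1, among the most abundant genes of the list, did not pass (log2 fold change 0.012 to 0.070 across the alternatives). The call of Iigp1 (0.59) was lost with DESeq2. Gbp5 rose from 7.57, 8.91, and 7.63 to 12.1, 12.9, and 11.9 CPM, and Cd274 rose by 0.32, a call lost without HFD replicate 2 (0.29). These subgroups were drawn after the values were seen.

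In the LIF axis, the ligand fell and its receptor rose. Lif was at 20.3, 17.2, and 17.3 CPM in the HFD libraries and 12, 11.4, and 9.6 CPM with EC359, against 20.3, 14.1, and 16 CPM with LFD. The EC359 libraries lay below all 6 vehicle libraries (-0.74 ± 0.13, edgeR adjusted p = 3.7e-05), and the diet difference was bounded (0.14, 95% interval -0.13 to 0.41). Of the other ligands, Il11 (-0.51 ± 0.21, edgeR adjusted p = 0.069), Osm (-0.10), Clcf1 (-0.21), Ctf1 (0.13), and Cntf (0.29) did not pass, and Il6 and Il27 had too few counts to be tested. Ebi3, a subunit of IL-27, was higher by 0.75, a call lost with DESeq2 and without HFD replicate 2 (0.74), HFD replicate 3 (0.64), EC359 replicate 1 (0.68), EC359 replicate 2 (0.82), or EC359 replicate 3 (0.75). Lifr rose from 83.2, 80.4, and 80.5 to 111, 109, and 99.3 CPM (0.38 ± 0.055, edgeR adjusted p = 2.1e-06), above LFD libraries at 69.1, 67.8, and 78.4 CPM. The shared chain Il6st did not pass (0.077, 95% interval -0.005 to 0.16). Il6ra, the receptor of IL-6, rose by 0.26 and Il11ra1, that of IL-11, fell by 0.42, while Cntfr (0.72) did not pass. The oncostatin receptor Osmr was higher by 0.19, a call lost with DESeq2 and without HFD replicate 1 (0.17), HFD replicate 2 (0.19), or EC359 replicate 3 (0.18).

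Among the kinases and STATs the changes were small. Jak2 was at 323, 328, and 324 CPM in the HFD group and 284, 288, and 278 CPM with EC359, so that the groups did not overlap (-0.20 ± 0.036, edgeR adjusted p = 9.4e-05), and at 353, 373, and 362 CPM with LFD. Jak3 fell by 0.31 and by less with the GC and length trend removed (-0.17). It overlaps 1 other gene on its strand. Stat3 was at 332, 355, and 346 CPM and 315, 320.1, and 309 CPM with EC359 (-0.13 ± 0.037, edgeR adjusted p = 0.0075), a fall whose call was lost without HFD replicate 2 (-0.11). Jak1, Tyk2, Stat2, Stat5b, and Stat6 did not pass (0.036, 0.13, -0.0041, 0.03, and -0.011). The rise of Stat5a (0.22) was lost with DESeq2 and without HFD replicate 1 (0.23), HFD replicate 2 (0.15), EC359 replicate 1 (0.20), or EC359 replicate 2 (0.16).

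The feedback inhibitors of the pathway moved in opposite directions. Socs3, which binds the receptor chain and is induced by STAT3, was at 209, 204, and 191 CPM in the HFD libraries and 157, 173, and 146 CPM with EC359 (-0.34 ± 0.052, edgeR adjusted p = 4.6e-06). The EC359 libraries lay below all 6 vehicle libraries, of which the LFD libraries were highest at 286, 253, and 260.3 CPM. Cish, which is induced above all by STAT5, rose from 13, 11.3, and 12 to 16.6, 16.9, and 16.4 CPM (0.46 ± 0.12, edgeR adjusted p = 0.0027), with LFD libraries at 16.4, 15.9, and 13.7 CPM. Of the other 10 tested inhibitors, Socs7 was lower by 0.17, a call lost without HFD replicate 1 (-0.14), EC359 replicate 1 (-0.14), or EC359 replicate 3 (-0.16). Ptpn11 was lower by 0.12, a call lost without HFD replicate 1 (-0.12), HFD replicate 2 (-0.12), HFD replicate 3 (-0.14), EC359 replicate 1 (-0.11), or EC359 replicate 3 (-0.12). Both calls were also lost with DESeq2, with library totals (-0.14 and -0.091), and after removing the GC and length trend (-0.11 and -0.083). Socs1 (-0.043), Socs2 (-0.31), Socs4 (0.024), Socs5 (-0.11), Socs6 (-0.11), Ptpn2 (0.12), Pias1 (0.13), and Pias3 (-0.058) did not pass.

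The promoter windows of Socs3 and Cish are shown because these inhibitors moved apart while both hold a STAT motif near the start. The motif searched was TTCNNNGAA, which reads the same on both strands, and its matches are in capitals. The windows are from RefSeq on GRCm38.p6, with 250 bases before and 50 after the annotated start, 5′ to 3′ on the strand of the gene. Socs3 lies at chr11:117969317-117969616 on the minus strand and Cish at chr9:107296409-107296708 on the plus strand.
Socs3: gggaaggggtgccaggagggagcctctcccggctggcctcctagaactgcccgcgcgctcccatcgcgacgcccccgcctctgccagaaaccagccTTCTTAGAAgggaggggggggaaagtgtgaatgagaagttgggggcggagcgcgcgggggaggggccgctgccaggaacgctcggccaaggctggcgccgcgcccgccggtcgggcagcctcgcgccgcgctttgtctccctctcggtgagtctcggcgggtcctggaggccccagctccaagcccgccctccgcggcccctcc
Cish: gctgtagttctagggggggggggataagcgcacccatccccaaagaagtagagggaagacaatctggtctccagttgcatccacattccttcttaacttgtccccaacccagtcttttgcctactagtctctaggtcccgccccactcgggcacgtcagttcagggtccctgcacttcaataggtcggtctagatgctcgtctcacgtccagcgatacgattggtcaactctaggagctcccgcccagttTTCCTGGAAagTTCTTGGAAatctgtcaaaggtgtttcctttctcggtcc
The match in Socs3 begins 154 bases before the start, and the 2 matches in Cish begin at the start and 11 bases after it. Of 37 tested genes of the LIF axis and target lists with a window, 3 held the motif (Socs3, Cish, and Tnfrsf1a), which is 8.11%, and 8.3% of all 32851 windows did. The absence of a match says only that these letters are not in this window.

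The study's primer list holds 15 genes besides its reference genes, with LIFR itself among them. Its text reports LIFR target genes by quantitative PCR without naming them, and these 15 genes are taken here as that panel. Of these, 3 rose, among them Id2 and Lifr, and 7 fell (median -0.17), against 12.7% and 13.8% of all tested genes. The list is the study's own choice and is not independent evidence of a direction. Junb, a subunit of AP-1, was at 389.5, 389, and 351 CPM in the HFD libraries and 280.1, 292, and 272 CPM with EC359, below LFD libraries at 488, 454, and 471 CPM (-0.42 ± 0.041, edgeR adjusted p = 9.0e-10). Timp1, an inhibitor of metalloproteinases, fell from 47.8, 46.2, and 50.3 to 34.1, 33.1, and 31.4 CPM (-0.55 ± 0.077, edgeR adjusted p = 1.1e-06), with LFD libraries at 51.6, 46.9, and 53.9 CPM. In both genes the EC359 libraries lay below all 6 vehicle libraries. The survival kinase Pim1 fell from 81.3, 82.1, and 79.9 to 67.7, 73, and 63.8 CPM. Bcl3, a nuclear partner of NF-kB, fell by 0.31 and Akt1 by 0.20, and both changed by less with the GC and length trend removed (-0.17 and -0.087). Mcl1 was lower by 0.17, a call lost without HFD replicate 1 (-0.14) or EC359 replicate 3 (-0.15), and Id1 was lower by 0.26, a call lost without HFD replicate 1 (-0.23) or EC359 replicate 1 (-0.24). Id2 rose from 9.58, 7.07, and 7.5 to 10.9, 13.4, and 12.7 CPM (0.62 ± 0.14, edgeR adjusted p = 0.0014). Bcl2, Myc, Socs2, Hif1a, and Tnfrsf1a did not pass (-0.069, -0.04, -0.31, -0.085, and -0.066).

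**Figure D4:**
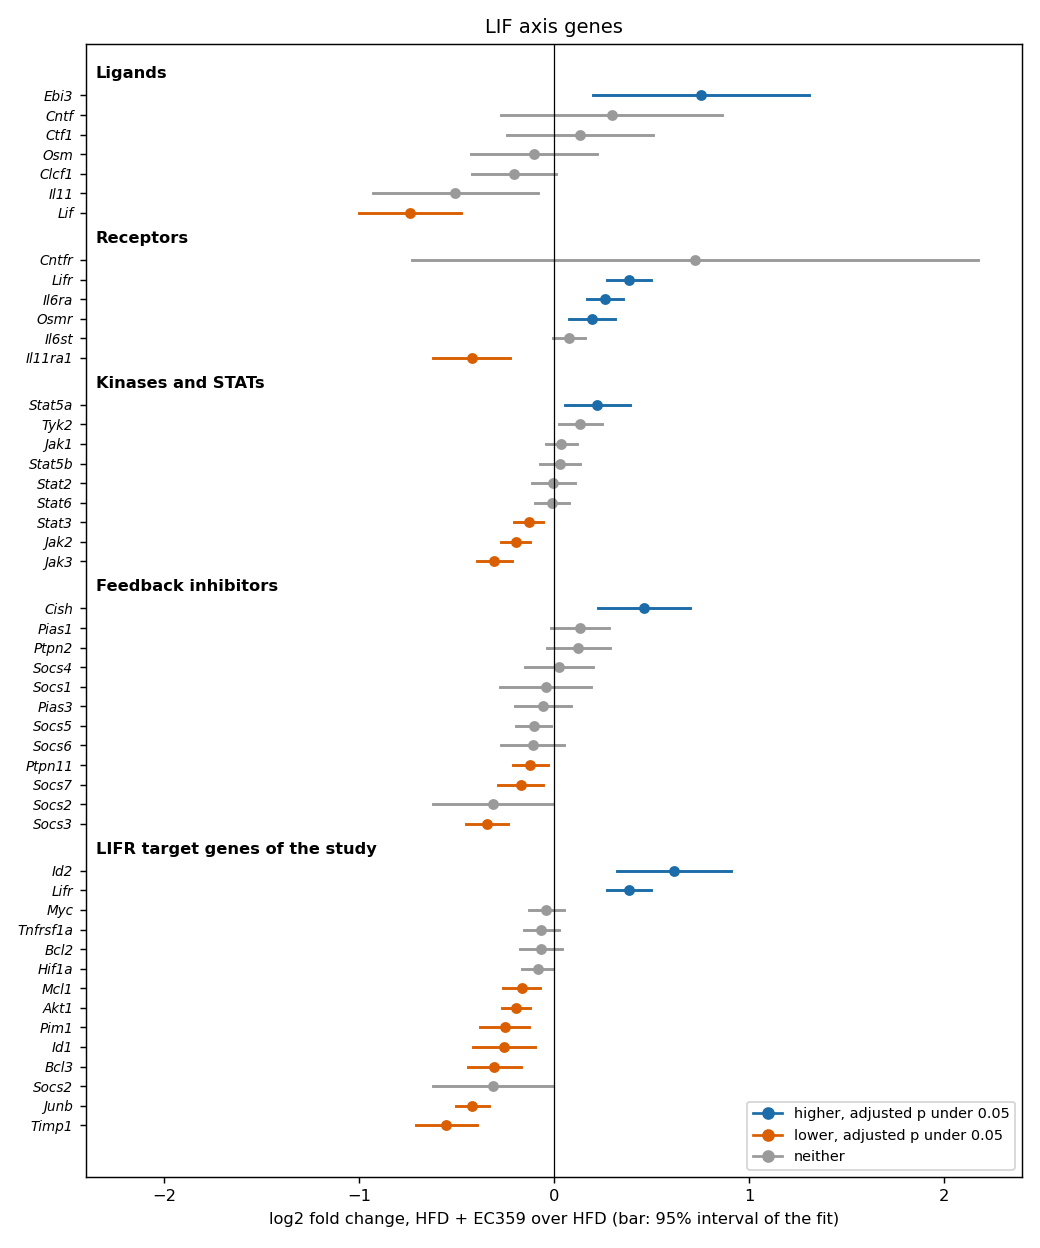
Log2 fold change of HFD + EC359 over HFD (horizontal axis) for tested ligands, receptors, kinases, STATs, feedback inhibitors, and target genes of the LIF axis, with 1 line per gene. Points are fitted values and bars their 95% intervals. Blue marks genes that were higher, orange genes that were lower at an adjusted p under 0.05, and gray the others. Lif (-0.74) and Lifr (0.38) stand on opposite sides of 0, and most bars of kinases and STATs lie near it.

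Across the matrix lists the falls were broad. Of 19 tested collagens, 17 fell and 1 rose (median -0.76), against 13.8% of all tested genes lower, and 10 of the 17 had a bounded diet difference, a share near the 61.1% of all tested genes. All 8 fibrillar collagens fell, by 0.58 for Col5a1 to 2.23 for the sparse Col11a1. Of the 4 basement membrane collagens 3 fell, among them Col4a1 (-0.45). Col18a1 did not pass (0.0018, 95% interval -0.063 to 0.067), with log2 fold changes of -0.014 to 0.15 across the alternatives. The beaded-filament collagen split within one molecule. Col6a3, with a bounded diet difference, fell from 602, 607, and 616 to 365, 352, and 355 CPM (-0.77 ± 0.033, edgeR adjusted p = 5.8e-19), while Col6a1 rose by 0.15. Of 25 tested matrix glycoproteins and proteoglycans, 19 fell and 1, fibronectin (Fn1), rose by 0.18 (list median -0.63). Elastin (Eln) fell from 40.9, 38.8, and 38.4 to 11.9, 13.5, and 13 CPM (-1.62 ± 0.096, edgeR adjusted p = 3.8e-15). Tnc, the tenascin of wounds and tumor stroma, fell from 319, 309, and 325 to 189, 193, and 191 CPM, well below LFD libraries at 448, 427, and 437 CPM (-0.74 ± 0.038, edgeR adjusted p = 1.0e-16). Sparc, a collagen-binding protein, fell by 0.43.

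Of 21 tested collagen processing enzymes, 12 fell and 1 rose (median -0.16), against 13.8% lower and 12.7% higher among all tested genes. The crosslinking oxidase Lox was at 62.7, 61.8, and 63.6 CPM and fell to 23.2, 19.5, and 21 CPM (-1.56 ± 0.081, edgeR adjusted p = 1.1e-16), with LFD libraries at 17.4, 19.3, and 19 CPM. Loxl2 fell by 1.28 and Adamts2, which trims the procollagen ends, by 0.95. Adamts2 had a bounded diet difference (-0.057, 95% interval -0.22 to 0.10), and the collagen chaperone Serpinh1 fell by 0.27. The bulk of the fibroblast markers moved less uniformly. Of 16 tested myofibroblast, pericyte, and fibroblast markers, 9 fell and 2 rose (median -0.40), against the same shares of all tested genes. Acta2, the actin of myofibroblasts, and Tagln fell by 1.18 and 1.36. Pdgfra, which marks fibroblasts, rose from 375, 366, and 383 to 476, 468, and 484 CPM. Pdgfrb stood at 333, 338, and 331 CPM and 334, 325, and 332 CPM with EC359 (-0.016, 95% interval -0.089 to 0.056). Dcn was at 71.8, 75.7, and 81.2 CPM and 66.2, 73.1, and 70.5 CPM with EC359 (-0.12, and -0.19 to -0.079 across the alternatives). The summed level of the list ran from 1178 to 1188 CPM in the HFD group and from 1189 to 1201 CPM in the HFD + EC359 group. The share of fibroblasts in the matrix falls was not tested.

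**Figure D5:**
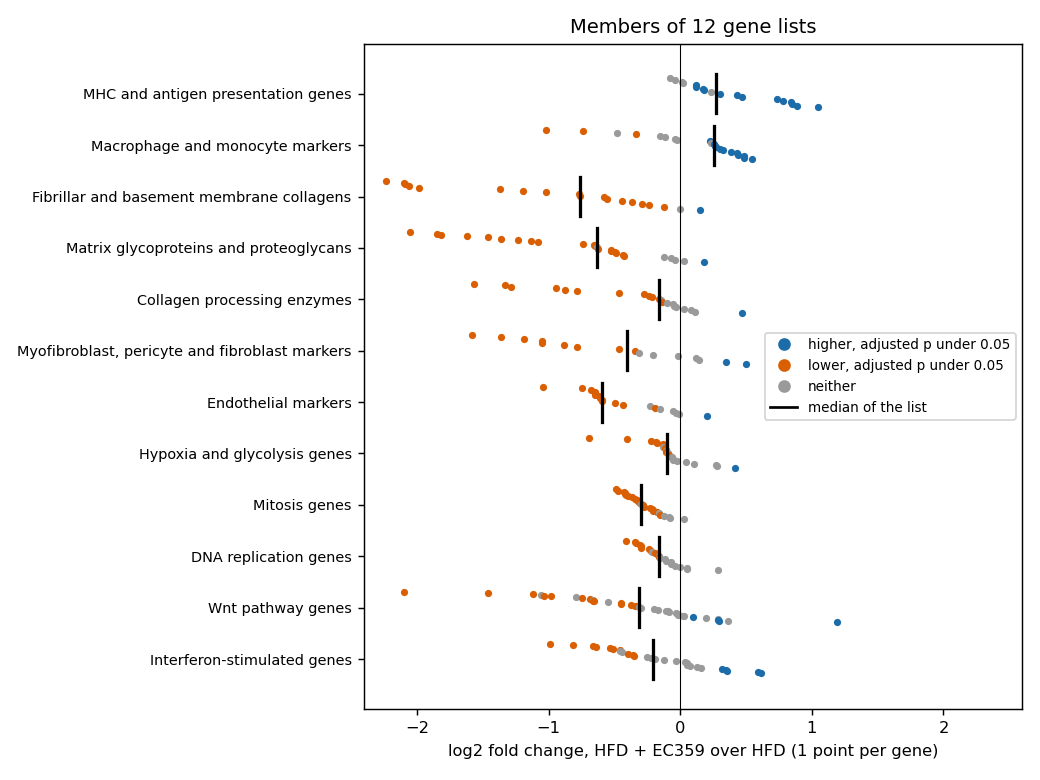
Log2 fold change of HFD + EC359 over HFD (horizontal axis) of the tested members of 12 gene lists, with 1 point per gene and a black bar at the median of the list. Blue points were higher and orange points lower at an adjusted p under 0.05, and gray points passed in neither direction. Collagens have a median of -0.76 and MHC genes of 0.27, and the mitosis genes form a narrow band from -0.48 to 0.032.

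Other bounded genes that fell by over 1.5-fold had varied roles. Vegfa, the main growth factor of vessels, was at 266, 261, and 278 CPM in the HFD group and 165, 162, and 170.4 CPM with EC359 (-0.69 ± 0.042, edgeR adjusted p = 5.4e-15), with LFD libraries at 209, 193, and 201 CPM. Inhba, which forms activin A, fell from 19, 18.1, and 21.4 to 13.2, 10.5, and 11.9 CPM and stood at 18.4, 14.1, and 17.3 CPM with LFD. Notch3, the Notch receptor of pericytes, fell from 96.7, 85.4, and 89.7 to 46.7, 48.6, and 47.8 CPM (-0.93 ± 0.061, edgeR adjusted p = 4.5e-14), while Notch1 rose by 0.44 and Notch2 was level (0.00076, 95% interval -0.063 to 0.065). Gas1, a coreceptor of hedgehog signaling, and Thy1, a surface marker of fibroblasts and T cells, fell by 0.84 and 0.78. Thbd, the thrombin receptor of endothelium, fell by 0.76, Mmp2, a gelatinase, by 0.73, Slit3, a guidance ligand, by 0.90, and Dkk3 by 0.68. Lrg1, an acute-phase glycoprotein that STAT3 can induce, fell from 26.7, 26.5, and 25.2 to 19, 15.1, and 16.7 CPM, and the metallothionein Mt2 by 0.67 on the log2 scale.

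Endothelial markers fell in part. Of 19 tested, 13 fell and 1 rose (median -0.59), against 13.8% lower and 12.7% higher among all tested genes, and the summed level ran from 1338 to 1364 CPM in the HFD group and from 1159.5 to 1188 CPM in the HFD + EC359 group. All 19 were higher with HFD than with LFD (median 0.69). The summed level in the LFD libraries was 873 to 904 CPM, below that with EC359. Vwf, the clotting factor stored in endothelium, was at 36.7, 33.9, and 32.3 CPM and fell to 15.2, 18.8, and 15.9 CPM (-1.04 ± 0.097, edgeR adjusted p = 2.5e-10). Tek, the receptor of angiopoietins, fell by 0.75, the VEGF receptor Kdr by 0.59, and the fenestral protein Plvap, with a bounded diet difference, by 0.65. The junction protein Pecam1 stood at 119.9, 109.9, and 113 CPM and 114, 109, and 108 CPM, with overlapping groups (-0.055, 95% interval -0.16 to 0.048), and Eng was likewise level (-0.0082, 95% interval -0.10 to 0.08). Cd93 rose by 0.20. Of 24 tested hypoxia and glycolysis genes, 12 fell and 1 rose (median -0.10), against the same shares of all tested genes. A bounded diet difference was found in 23 of the 24, with all 13 that moved, against 61.1% of all tested genes. That share includes sparse genes with wide intervals. The diet test was still passed by part of the list, with 4 of the 24 higher and 9 lower with HFD than with LFD. Ndrg1 fell from 1116, 1132, and 1122 to 841, 845, and 859 CPM, while Egln3, the oxygen sensor that hypoxia itself induces, rose from 300.4, 294, and 296 to 402, 402, and 383 CPM (0.42 ± 0.038, edgeR adjusted p = 1.6e-10). The glycolytic enzymes Pkm2 and Pfkp fell by 0.13 and 0.22, the former by less with the GC and length trend removed (-0.078).

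Cell division genes fell by small amounts. Of 27 tested mitosis genes, 21 fell and 0 rose (median -0.29, range -0.48 to 0.032), against 13.8% of all tested genes lower. A bounded diet difference was found in 19 of the 21, against 61.1% of all tested genes, which include sparse genes with wide intervals. The diet moved this list as well, since 17 of the 27 were higher and 3 lower with HFD than with LFD (median 0.23). The mean summed level was 2432 CPM with LFD, 2819 CPM with HFD, and 2381 CPM with EC359. Ube2c, the ubiquitin carrier that drives mitotic exit, was at 96, 89.99, and 91 CPM and fell to 65.9, 67.1, and 65.1 CPM, below LFD libraries at 76.5, 78.7, and 80.9 CPM (-0.48 ± 0.053, edgeR adjusted p = 1.0e-08). The spindle kinase Aurka fell from 64.8, 67.3, and 60.8 to 46.3, 46.3, and 46.6 CPM, and the checkpoint kinase Bub1b from 124, 114, and 111 to 87.3, 85.2, and 88 CPM. The EC359 libraries of these genes lay below all 6 vehicle libraries. None of the mitosis genes passed 2-fold. Of 25 tested DNA replication genes, 12 fell and 0 rose (median -0.16). Fen1, the flap endonuclease, fell by 0.34 and Rrm2, a subunit of ribonucleotide reductase, by 0.31.

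Of 37 tested Wnt pathway genes, 14 fell and 4 rose (median -0.31), against 13.8% lower and 12.7% higher among all tested genes. Sfrp4, a secreted antagonist of Wnt ligands, fell from 3.91, 5.37, and 3.68 to 0.97, 0.451, and 1.5 CPM. Its relative Sfrp2 fell by 1.12 on the log2 scale, and Wnt5a fell from 17.7, 15.6, and 16.1 to 11.8, 9.82, and 9.8 CPM. Wnt4 was among the 4 that rose, from 1.51, 1.31, and 0.954 to 2.79, 3.39, and 2.6 CPM. Of 35 tested TGF-beta, BMP, and activin genes, 8 rose and 14 fell. Fstl1, a secreted follistatin-like protein, fell from 127, 131, and 127 to 51.6, 47.7, and 45.5 CPM, to the level of the LFD libraries (48.7, 49, and 47.8 CPM). The feedback inhibitor Smad7 fell from 192, 185, and 184 to 136, 146, and 139 CPM and Id3 by 0.58, both below all 6 vehicle libraries, while the coreceptor Tgfbr3 rose by 0.52.

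Epithelial regulators rose while most mesenchymal factors did not move past the test. Cdh1, the epithelial cadherin, was at 5.55, 6.03, and 6.13 CPM in the HFD libraries and 20.1, 20.3, and 19.3 CPM with EC359 (1.75 ± 0.12, edgeR adjusted p = 3.8e-13), still below LFD libraries at 27.4, 29, and 28.9 CPM. Of 16 tested genes of the epithelial to mesenchymal transition list, 6 rose and 3 fell (median -0.11). Of all tested genes, 12.7% were higher and 13.8% lower. The list was split into 2 subgroups after the values were seen. All 6 tested epithelial state genes rose, among them the splicing factor Esrp1 (1.58), the transcription factor Ovol1 (2.07), and Epcam (1.90). Of 10 tested mesenchymal factors 3 fell, with Prrx1 at 42.4, 40.6, and 38.3 CPM and 26.1, 22.1, and 27.5 CPM (-0.68 ± 0.089, edgeR adjusted p = 3.7e-07), while Vim (-0.068) and Zeb2 (0.079) did not pass. Erbb3, a receptor of neuregulins, rose from 3.66, 2.88, and 3.54 to 8.98, 9.03, and 9.9 CPM. None of the epithelial state genes had a bounded diet difference, and they moved alongside the keratins above.

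Of 18 tested genes of fatty acid uptake and oxidation, 7 rose and 0 fell (median 0.12), against 12.7% higher and 13.8% lower among all tested genes. The number of rises was 4 without HFD replicate 1 or without HFD + EC359 replicate 2. Cpt1a, the entry enzyme of mitochondrial fatty acid oxidation, was at 81, 90.6, and 90.8 CPM in the HFD group, 122, 121, and 118 CPM with EC359, and 83.9, 87, and 87.8 CPM with LFD (0.46 ± 0.05, edgeR adjusted p = 9.8e-09). Its EC359 libraries lay above all 6 vehicle libraries, and the diet difference was 0.018 (95% interval -0.10 to 0.13). Fabp5, a fatty acid carrier of epidermis and macrophages, rose by 1.16. Of 25 tested genes of cholesterol and fatty acid synthesis, 5 rose and 1 fell, so that the share of falls was below that of all tested genes. Scd1, a desaturase, rose by 0.51. Skeletal muscle markers split, with 4 of 14 higher and 5 lower. The myosin heavy chains Myh1 and Myh2 rose from 12, 13.6, and 12.5 to 35.8, 38.1, and 36.2 CPM and from 5.67, 4.45, and 3.95 to 12.4, 12.9, and 12.1 CPM, while Myh4 fell from 54.1, 50.8, and 46.6 to 16.9, 19.1, and 18.8 CPM and the creatine kinase Ckm from 11.6, 11.5, and 14.6 to 6.19, 4.74, and 4.2 CPM. The giant muscle proteins nebulin (Neb), with a bounded diet difference, and titin (Ttn) rose from 27.9, 24.8, and 26.2 to 45.4, 45, and 45.3 CPM and from 233, 232, and 251 to 313, 326, and 323 CPM, but the log2 fold change of Ttn was 0.43, or 0.014 once the GC and length trend was removed. Myosin heavy chain genes are close copies that can share reads.

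The counts of the remaining lists can be read against 12.7% of all tested genes higher and 13.8% lower. Of 13 tested complement genes 8 fell and 1 rose, and Serping1, the inhibitor of the first component, fell by 1.05. Of 30 proteases and inhibitors 17 fell and 6 rose. A2m, the protease inhibitor alpha-2-macroglobulin, had the largest fall of all tested genes, from 5.42, 3.67, and 4.77 to 0.364, 0.113, and 0.4 CPM, and was listed at 0 in the LFD libraries. It had 1 to 4 counts per EC359 library, and the ratio of HFD to EC359 counts was 15.7 (7.68 to 37.3) (exact 95% interval, counting error only). Adam12, a metalloprotease of stroma, and Mmp23 changed by -1.16 and -1.08. Of 13 imprinted growth genes 8 fell and 1 rose. The thyroid hormone deiodinase Dio3 had 1 or 2 counts in each EC359 library, a ratio of HFD to EC359 counts of 8.29 (3.23 to 27.1) by the same interval, and Peg10 and Plagl1 changed by -2.07 and -1.99. Of 12 neutrophil markers 4 rose and 2 fell, as S100a8 rose by 0.70 and the granule proteins Ltf and Ngp fell by 1.39 and 0.84. Of 22 MAPK and AKT feedback genes 2 rose and 7 fell, with Fos falling by 0.37 and Irs1 by 0.38. Of 21 unfolded protein and ATF4 response genes 2 rose and 3 fell, and of 21 apoptosis genes 2 rose and 2 fell, shares near or below those of all tested genes. Of 13 stem-like cell genes 2 rose and 3 fell, and of 36 growth factors and receptors 6 rose and 9 fell. Of 22 junction genes 10 rose and 3 fell, with Dsp, the desmosome linker of keratins, rising from 32, 38.6, and 28.5 to 159.5, 167, and 155 CPM. Of 9 tested T, NK, and B cell markers 2 rose and 1 fell. The fall was in Igj, the joining chain of secreted antibodies, from 5.67, 5.11, and 4.09 to 0.849, 1.02, and 0.5 CPM. Foxp3, the factor of regulatory T cells, which overlaps another gene on its strand, rose from 0.757, 1.05, and 1.09 to 2.18, 2.48, and 2.2 CPM. Of 17 Notch pathway genes 3 rose and 7 fell, of 9 adipocyte markers 2 rose and 1 fell, and of 7 simple keratins and luminal mammary genes 2 rose and 2 fell.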

How the data were processed

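Gene-level estimated counts were deposited by the authors, 1 table per library. Per the file headers they were made with featureCounts 1.5.0-p1 from reads of mapping quality 2 or above on the reverse strand, with multimapping and overlapping reads split as fractions, so near copies of a gene can share reads. The labels name HISAT2 2.1.0 and the mm9 build, while the study's methods name another aligner and counter. Counts were rounded to whole numbers. Genes were kept by edgeR's filterByExpr, scaled by TMM, and tested in one quasi-likelihood fit of all 9 libraries with group as the only term (R 4.3.3, edgeR 4.0.16, limma 3.58.1), and p-values were adjusted by Benjamini-Hochberg for 13366 genes. CPM values use TMM-scaled library totals. Fold changes are log2 with their standard error. Values are listed in the order of the replicate numbers, which name libraries and have no other order. The fit was tested on simulated data. Alternatives were DESeq2 1.42.0, other scalings and filters, a GC and length offset, a replicate block, the 6 libraries alone, and each library left out.

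The members and gene lists were chosen with earlier results of these data known, and no test over a list was made. Named were the 10 largest rises and 10 largest falls past the threshold with non-overlapping groups, the bounded genes past it, all tested LIF axis genes except a few that are not reported here, up to 4 members of each list with the largest passing change and up to 2 with the highest level, and the cell type markers. Genes named beyond these, including the bounded genes past 1.5-fold and the subgroups of lists, were chosen after their values were seen. Sequences are RefSeq promoter windows (GRCm38.p6) matched by symbol. Of the tested LIF axis and target genes 37 matched and 11 had no window, and of the tested class II genes 4 matched and 3 had none.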

Additional observations from a re-analysis of the deposited data

How the results depend on the processing

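Every setting below uses edgeR unless DESeq2 is named. With the replicate number as a block, 274 of the 278 rises and 182 of the 184 falls past 2-fold were shared with the unblocked fit. The labels do not say whether the numbers pair the libraries. The deviations of same-numbered HFD and HFD + EC359 libraries correlated at 0.02, 0.00048, and 0.0078, which cannot exclude a pairing with 3 libraries in each group. With the block, 2 of the named genes lost their call. DESeq2 shared 233 and 155 of these genes, and called 1119 genes higher at any fold and 4 fatty acid genes. A minimum mean count of 50 left 86 rises and 66 falls, 7 cornified envelope genes higher, and 4 imprinted genes lower, because fewer genes were tested. Leaving out single libraries shared 228 to 278 rises and 146 to 184 falls. Of the bounded genes past 2-fold, the 9 falls became 4 with library totals, 5 with DESeq2, 31 where bounded was replaced by a diet adjusted p of at least 0.05, 1 with a tighter bound on the diet fold, and 2 where the gene had also to pass against LFD. The 3 rises became 23 and 0 under the diet p and the tighter bound. At 1.5-fold, a limit chosen after seeing the data, the bounded counts ran from 23 to 45 for rises and from 38 to 60 for falls. Library totals, which moved the median of all genes to 0.038, left 7 hypoxia genes lower. Counted past 2-fold at an adjusted p under 0.01, the lower members were 8 collagens, 9 matrix genes, 3 processing enzymes, 1 endothelial marker, 4 Wnt genes, 4 proteases, 1 complement gene, 5 myofibroblast markers, 6 imprinted genes, and 0 mitosis, replication, hypoxia, or LIFR target genes. The higher members were 17 cornified envelope genes, 11 keratins, 7 junction genes, 5 dendritic and mast cell markers, 2 chemokines, 1 MHC gene, 1 fatty acid gene, and 0 macrophage markers. Fatty acid genes higher ran from 4 to 7 with single libraries left out. With the GC and length trend removed, Ltbp3 and Fasn changed sign (0.085 and 0.0032, and 0.085 and 0.0028 with the replicate block). Where no cause is given, the cause was not tested. Genes of a few counts per library, such as Rptn, have wide counting intervals.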

Other observations

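Several further genes, chosen after their values were seen, are described by their own values, with no count or test of a group. Cyr61, a matricellular protein, was at 140.4, 134, and 138 CPM in the HFD libraries, 96.7, 95, and 95.4 CPM with EC359, and 129, 129, and 141 CPM with LFD (-0.52 ± 0.047, edgeR adjusted p = 1.2e-10). Amotl2, a junction protein that inhibits YAP, fell from 206, 218, and 202 to 143, 154, and 139 CPM and Ankrd1, a muscle ankyrin repeat protein, from 64.1, 66.4, and 59.3 to 48.2, 48.2, and 49.8 CPM. In these 3 genes every EC359 library lay below all 6 vehicle libraries. Ctgf fell by 0.65 on the log2 scale, and its diet difference was not bounded (0.60). Lats2 (-0.12), Thbs1 (-0.038), and Axl (0.034, and 0.024 to 0.077 across the alternatives) did not pass the test. The cytoskeletal genes Csrp1 and Myh9 fell by 0.51 and 0.28, the latter by less with the GC and length trend removed (-0.18), and Pdgfb, the growth factor that recruits pericytes, fell from 158, 154, and 146 to 111, 107, and 107 CPM.

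Some genes expressed by macrophages rose by less than 1.5-fold with a bounded diet difference. The mannose receptor Mrc1 was at 438, 441, and 452 CPM and rose to 599, 594, and 606 CPM, above LFD libraries at 539, 578, and 585 CPM (0.44 ± 0.035, edgeR adjusted p = 6.7e-12). The inhibitory Fc receptor Fcgr2b rose by 0.51, the signaling lipase Plcg2 by 0.52, the protease inhibitor Cst3 by 0.47, and the complement subunit C1qc by 0.48. In all 5 genes the EC359 libraries lay above all 6 vehicle libraries. The hedgehog coreceptor Cdon rose from 549.9, 565, and 551 to 775, 776, and 799 CPM, in the direction opposite to Gas1, which has a like role and fell by 0.84. The semaphorin and VEGF receptor Nrp2 rose by 0.44. These genes were chosen after their values were seen.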
